A study of Mus musculus with 6 samples.

Results

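Interferon-stimulated genes are the genes that cells switch on when type I interferon reaches its receptor, and 43 of them were followed here in mouse macrophages labelled as wild type or as knockout for Tmem175, the gene of a lysosomal ion channel. The 43 genes were taken from a named list and matched by symbol to Ensembl gene IDs of a deposited raw count table of 55421 genes. All 43 matched 1 gene each, and all 43 were among the 13588 genes with enough counts to test. The description covers their tonic level, meaning the level with no stimulus named in the labels. It also covers the way the 43 genes went up and down together between libraries of the same genotype, and knockout against wild type.

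The cells were primary bone marrow-derived macrophages, which are grown from marrow progenitors in a dish, and no stimulus is named in the labels. The 3 knockout (KO) libraries came from wells of cells labelled Tmem175flox/flox Lyz2-Cre+/-, in which Cre recombinase is made from the Lyz2 locus, a gene active in myeloid cells, and cuts out floxed Tmem175; their genotype is also given as Tmem175-/-. The 3 wild type (WT) libraries came from other wells of the same kind of culture. Ages and separate animals are not named, so p-values measure the spread between wells, which may be technical. No library has Cre alone or floxed alleles alone, so effects of Cre, of its insertion into Lyz2 and of strain background cannot be told apart from those of losing Tmem175.

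Type I interferons bind the receptor IFNAR1 and IFNAR2, whose kinases JAK1 and TYK2 activate STAT proteins. A complex that holds STAT2 and IRF9 then binds the interferon-stimulated response element (ISRE), a repeat of GAAA blocks in the promoters of its targets. Interferon-gamma acts mainly through another promoter element, called GAS. Macrophages keep a low interferon tone without infection, and the products of the induced genes sense, bind or degrade viral nucleic acid, block virus entry and release, or damage the vacuoles that hold intracellular bacteria.

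The promoters of 5 members show the elements that these genes are known by. Of the 43 members, 33 had a promoter entry in the RefSeq table of build GRCm38.p6, with 40 windows in all, each from 250 bases before to 50 bases after a gene start. The stretches below run 5′ to 3′ on the gene's strand up to the first annotated start, and capitals mark every match on either strand to the ISRE core (GAAA, any 2 bases, GAAA) or the GAS form TTCNNNGAA. They lie at chr4:156200819-156200968 (minus strand) for Isg15, chr19:34640739-34640870 (plus) for Ifit1, chr8:71537473-71537622 (minus) for Bst2, chr3:142530186-142530335 (plus) for Gbp7 and chr11:53769864-53770013 (plus) for Irf1.
Isg15: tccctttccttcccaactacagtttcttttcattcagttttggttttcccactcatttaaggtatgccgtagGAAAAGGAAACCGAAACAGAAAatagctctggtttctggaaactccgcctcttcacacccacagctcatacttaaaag
Ifit1: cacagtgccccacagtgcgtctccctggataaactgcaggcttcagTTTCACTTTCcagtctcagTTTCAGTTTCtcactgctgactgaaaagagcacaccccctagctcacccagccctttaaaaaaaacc
Bst2: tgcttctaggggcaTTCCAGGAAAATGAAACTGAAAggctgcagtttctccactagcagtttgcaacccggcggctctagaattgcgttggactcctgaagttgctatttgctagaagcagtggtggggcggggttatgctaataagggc
Gbp7: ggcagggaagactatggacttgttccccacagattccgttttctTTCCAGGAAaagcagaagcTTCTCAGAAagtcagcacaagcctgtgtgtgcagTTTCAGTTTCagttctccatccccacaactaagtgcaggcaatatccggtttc
Irf1: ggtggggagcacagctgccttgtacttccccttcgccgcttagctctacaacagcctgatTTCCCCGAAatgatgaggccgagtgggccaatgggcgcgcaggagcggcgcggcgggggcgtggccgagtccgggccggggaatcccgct

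Isg15 and Ifit1 were shown for repeated ISRE cores, Bst2 for a GAS match that runs into ISRE cores, Gbp7 for separate matches of both kinds, and Irf1 for a GAS match with no ISRE core. The ISRE core was found in 19 of the 33 members with an entry (57.6%), against 3.99% of the 27025 genes in the promoter table and 4.07% of the tested genes that have an entry. A longer form (GAAA, any 2 bases, GAAACT) was found in 12 members (36.4%), against 0.303% of the table. The GAS form was found in 12 members (36.4%), against 9.55% of the table. Either element was present in 24 members (72.7%), against 12.9%, and both in 7 members (21.2%), against 0.54%. A second list, of other interferon-induced genes, had 65 genes with an entry. The ISRE core was found in 30 of these (46.2%) and both elements in 4 (6.15%). The GAS form was found in 7 of the 65 (10.8%), near the share of the table. Matches of the 2 elements can overlap, as in Bst2, and a match is a run of letters that was not tested for binding. The 10 members without an entry were Dhx58, Ifi204, Ifi27l2a, Mx1, Mx2, Oas2, Parp14, Rtp4, Usp18 and Zbp1.

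Libraries held 24179548 to 31542741 counts. Tmem175 itself gave 14.3, 13.2 and 12.1 CPM (the count relative to the TMM-scaled library total) in KO replicates 1, 2 and 3 and 32.8, 33.5 and 33.2 CPM in WT replicates 1, 2 and 3. The log2 fold change (KO minus WT) was -1.33, with SE 0.07 and an adjusted p of 6.01e-05 by edgeR's quasi-likelihood test, so no library went against its label. The first principal component over all tested genes held 29.3% of the variance and did not fully separate the genotypes. KO replicates 1, 2 and 3 scored -2.62, 17.4 and 13.2. WT replicates 1, 2 and 3 scored -19.9, -17.5 and 9.41. WT replicate 3 stood above KO replicate 1, while WT replicates 1 and 2 were below every KO library. The 6 libraries kept that order over the 13434 tested genes outside the interferon lists used here. Of 10 macrophage markers, all 10 were counted in all 6 libraries.

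The interferon-stimulated genes were well expressed in these cells, for which no stimulus is named, at levels from 14.6 to 2998 TPM. Levels of different genes were compared in TPM, which is the count per base of exon scaled to the same total in every library, given as mean ± SD over all 6 libraries. The median member stood at 101 TPM, against 12.6 TPM for the median tested gene, and 21 of the 43 members were in the top 10% of 13579 tested genes with a length. Every member was in the upper 50% of that ranking.

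Membrane proteins that restrict virus particles led the list. Ifitm3, which blocks fusion of viruses in endosomes, reached 2998 ± 445 TPM (SD, n = 6) and ranked 29 among the tested genes. Bst2, or tetherin, which holds budding virus at the cell surface, followed at 1638 ± 152 TPM. Ifi27l2a, a small mitochondrial membrane protein, stood at 618 ± 87.2 TPM. The next members were Isg15, a ubiquitin-like modifier, at 397 ± 80.4 TPM and the RNA-binding proteins Ifit3 at 392 ± 66.9 TPM and Ifit2 at 285 ± 62.5 TPM. Isg15 and Ifit3 were not separated beyond their spread. The lowest levels were those of the ISG15 ligase Herc6 at 14.6 ± 2.07 TPM, the guanylate-binding protein Gbp5 at 15.8 ± 3.23 TPM and the dynamin-like GTPase Mx2 at 17.2 ± 2.78 TPM, again within each other's spread.

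**Figure D1:**
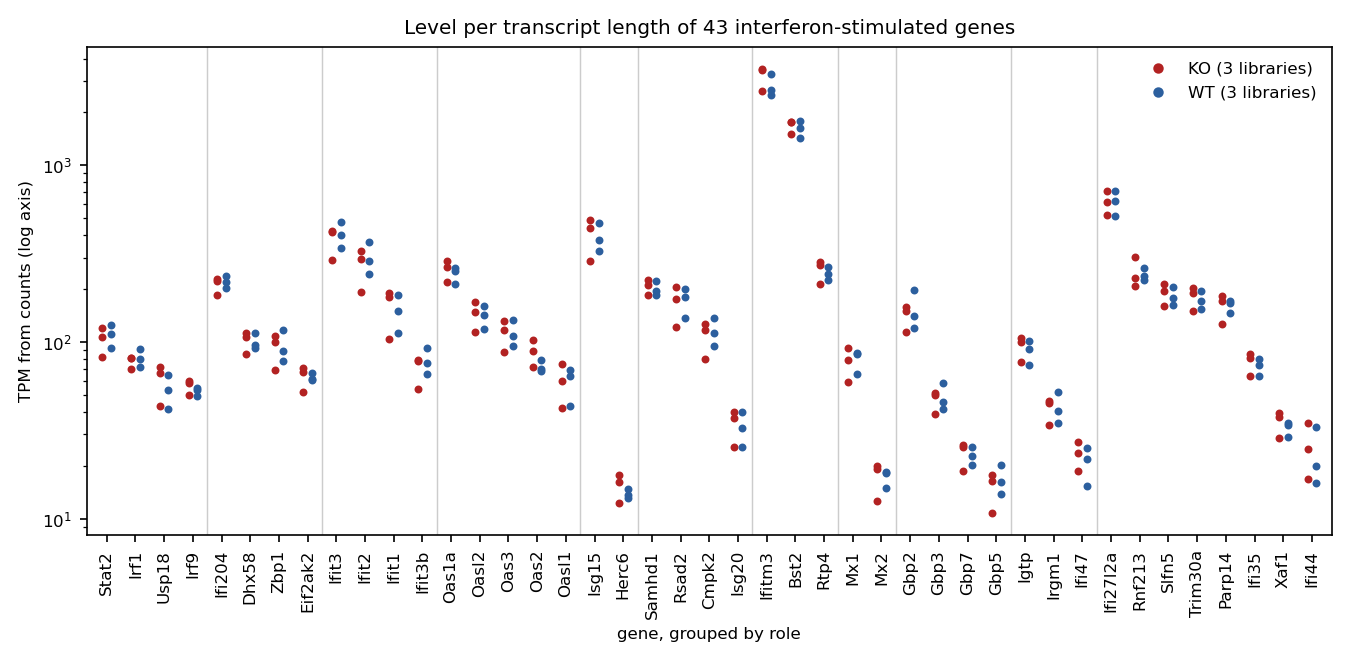
Each point is the TPM of a gene in a library (log axis), with 3 KO and 3 WT libraries per gene and genes grouped by role from signalling proteins at the left to mixed effectors at the right. Ifitm3 and Bst2 stand above the other members, Herc6, Gbp5 and Mx2 at the bottom, and KO and WT points of each gene overlap.

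The 43 genes went up and down together between libraries of the same genotype. On a log2 CPM scale and relative to the mean of their own genotype, the members lay on average at -0.29, 0.17 and 0.12 in KO replicates 1, 2 and 3 and at -0.22, -0.01 and 0.24 in WT replicates 1, 2 and 3. Over all tested genes the same means stayed between -0.02 and 0.02. In fold terms the members' mean level in KO replicates 2 and 3 was 1.37 and 1.33 times that in KO replicate 1, and in WT replicates 2 and 3 it was 1.15 and 1.37 times that in WT replicate 1. Replicate numbers carry no order, and the orders counted next were picked out after the values had been seen.

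KO replicate 1 was the lowest of the KO libraries for 43 of 43 members, against 35.7% of all tested genes. WT replicate 1 was the lowest of the WT libraries for 42 of 43 members (32.1% of all tested genes), and WT replicate 3 was the highest for 42 of 43 (36.4%). Eif2ak2 was the exception to the former, with WT replicate 2 lowest, and Oas2 the exception to the latter, with WT replicate 2 highest. All 3 orders were met at once by 41 of 43 members and by 10.4% of all tested genes. Across genotypes, KO replicate 1 was the lowest of all 6 libraries for 42 members (16.4% of all tested genes) and WT replicate 3 the highest of all 6 for 38 members (18.4%). KO replicate 1 was below every WT library for 42 members (24% of all tested genes), and WT replicate 3 above every KO library for 38 (25.8%). The highest KO library was replicate 2 for 30 members (33.2%) and replicate 3 for 13 members (31%). The 43 values of a library come from the same well, so these counts do not stand for 43 independent observations, and no test was made of them.

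**Figure D2:**
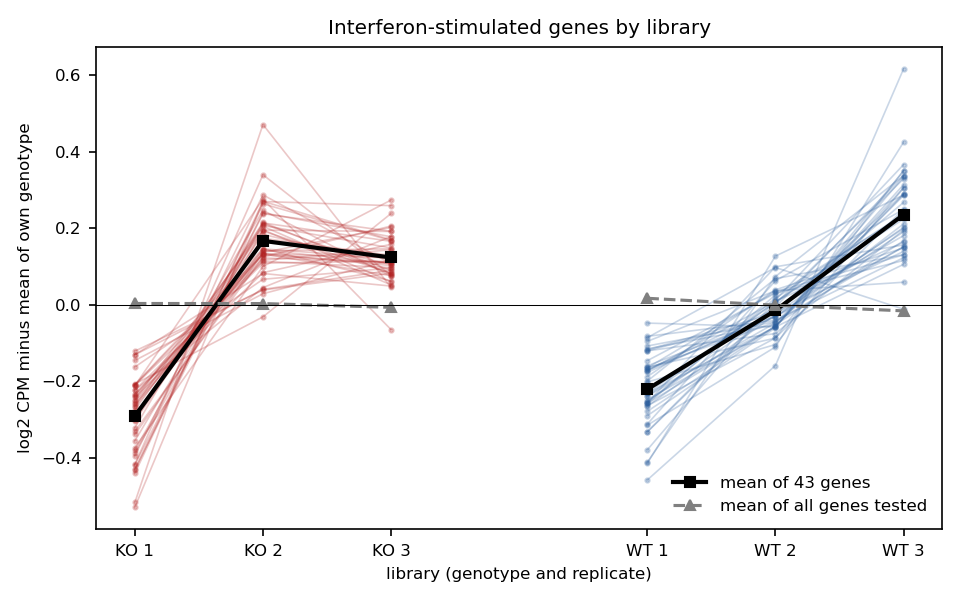
Thin lines give each of the 43 genes as log2 CPM minus the mean of its own genotype, in 3 KO and 3 WT libraries; squares give the mean of the 43 genes and triangles the mean of all tested genes. The squares sit at -0.29 and -0.22 in KO 1 and WT 1 and at 0.24 in WT 3, and the triangles sit near 0 in every library.

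The spread was of like size in both genotypes. From the lowest to the highest library the median member spanned 0.47 in KO and 0.46 in WT on the log2 CPM scale, or 1.38-fold and 1.37-fold. The median tested gene spanned 1.14-fold in each genotype, and the median of the 8249 genes that averaged 10 CPM or more, which all 43 members reached, spanned 1.09-fold in each. Ranges above 1.5-fold were seen in 10 of 43 members within KO and in 10 of 43 within WT, against 14.2% and 15.7% of all tested genes. Members with a wide range in KO also tended to have a wide range in WT (Pearson r = 0.727, Spearman rho = 0.654 across 43 genes, a description over genes that share the same 6 libraries). The widest ranges were those of Ifi44, at 1.98-fold in KO and 2.11-fold in WT. The narrowest were 1.15-fold in KO for Irf1 and 1.11-fold in WT for Irf9. The 19 members with an ISRE core in their window had median ranges of 0.41 in KO and 0.51 in WT (log2), and the 14 with an entry but no core had 0.48 and 0.42.

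**Figure D3:**
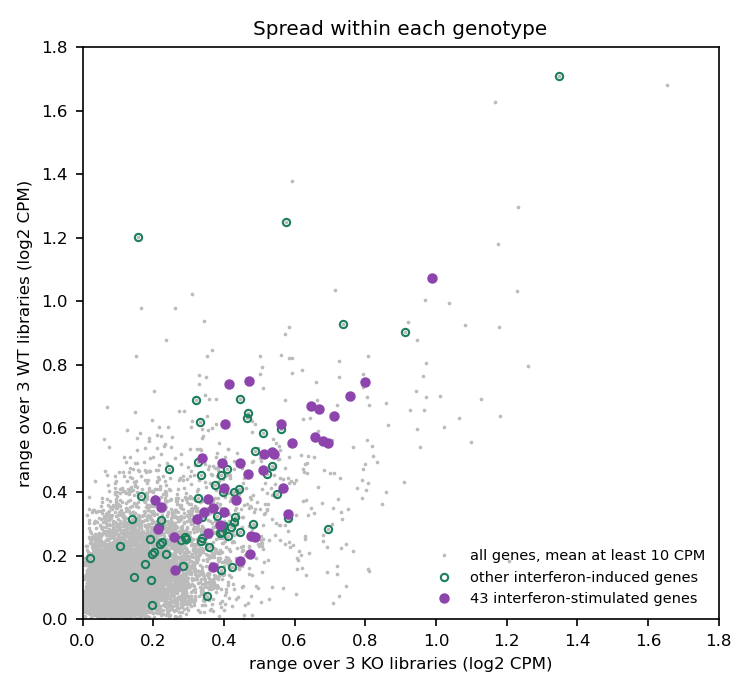
The range of log2 CPM over the 3 KO libraries (x axis) is plotted against that over the 3 WT libraries (y axis), with a point for each of the 43 genes, each of 66 other interferon-induced genes that averaged 10 CPM or more and each of the 8249 genes at that level (4 lie outside the axes). The 43 genes lie along the diagonal above the mass of all genes, with Ifi44 farthest out.

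Knockout and wild type were not separated for any member. By edgeR's quasi-likelihood test, 0 of 43 members were called lower and 0 higher at an adjusted p under 0.05, against 0.0883% and 0.0147% of all tested genes (12 and 2 genes). At an unadjusted p under 0.05 edgeR also had 0 members in either direction (3.04% and 2.4% of all tested genes), DESeq2 called 0 and had 1 lower at that unadjusted level, and limma-voom called 0 and had 0. KO and WT values overlapped for all 43 members, whereas 5.06% of all tested genes had every KO library below every WT library and 5.73% the reverse. The members' median log2 fold change was -0.08, and 36 of 43 had a negative value (83.7%, against 50.4% of all tested genes, whose median was -0.0009). The sign of that median rested on single libraries: it was 0.03 without KO replicate 1 and 0.04 without WT replicate 3, and between -0.19 and -0.09 without any of the other 4 libraries.

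The intervals show what size of difference the 6 libraries could have held. All 43 of the 95% confidence intervals of the log2 fold change included 0. Their bounds ran from -0.69 to 0.67, so each of the 43 lay within a 2-fold change either way, and 38 lay within a 1.5-fold change. Standard errors ran from 0.07 for Irf9 to 0.28 for Ifi44, with a median of 0.13. A p-value above the threshold does not show that the genotypes were equal.

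**Figure D4:**
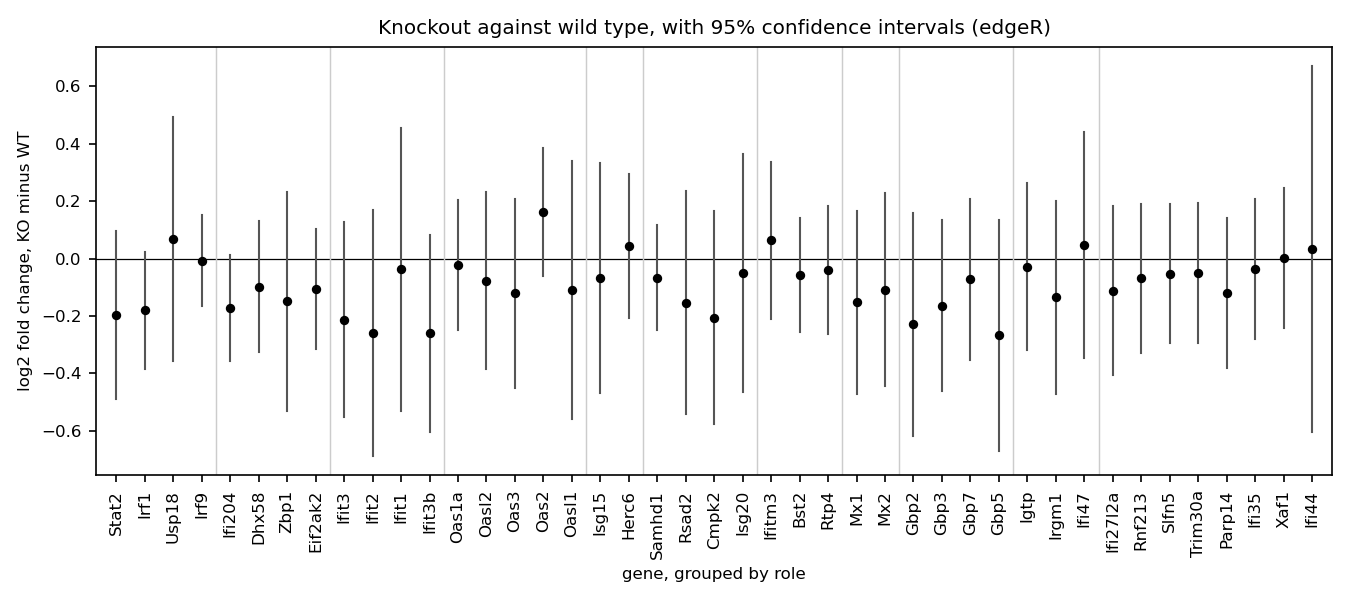
Points give the log2 fold change of each of the 43 genes, KO minus WT, and bars the 95% confidence interval from the edgeR fit, with genes grouped by role. All 43 bars cross 0, and the points run from -0.27 for Gbp5 to 0.16 for Oas2.

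Among the members that carry and control the signal, Stat2 and Irf9 encode partners in the complex that binds the ISRE. Stat2 (chr10:128270559-128292849) gave 159, 220.2 and 204 CPM in KO replicates 1, 2 and 3 and 188, 222 and 258 CPM in WT replicates 1, 2 and 3. KO replicate 1 was the lowest and WT replicate 3 the highest of the 6, the remaining libraries overlapped, and the difference was -0.20 in log2 (SE 0.13; adjusted p = 0.966 in edgeR). Irf9 gave 87.3, 98.6 and 105 CPM in KO and 91.0, 99.7 and 101 CPM in WT, with a log2 fold change of -0.01 (SE 0.07). Its exons share 123 bases with Rnf31 on the same strand, so part of its count may belong to that gene.

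Irf1, a transcription factor that responds to both interferon types and whose promoter stretch above held a GAS match and no ISRE core, gave 90.4, 101 and 104 CPM in KO and 98.4, 109 and 128 CPM in WT. Its log2 fold change of -0.18 (SE 0.09) had an unadjusted p of 0.0764 and an adjusted p of 0.939 (edgeR), and KO replicates 2 and 3 were above WT replicate 1. Usp18, which removes ISG15 from proteins and damps the receptor, gave 39.2, 62.3 and 60.3 CPM in KO and 40.0, 50.5 and 63.3 CPM in WT. It showed the wide swing of 1.59-fold in KO and 1.58-fold in WT, with the replicate 1 libraries of both genotypes low, and a log2 fold change of 0.07 (SE 0.19).

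The 4 sensors of foreign nucleic acid all had negative log2 fold changes, from -0.17 to -0.10, with none called. Ifi204, a DNA-binding PYHIN protein, had the smallest unadjusted p of the 43 (0.0647, adjusted p = 0.932, edgeR). It gave 213, 250.0 and 255 CPM in KO and 248, 265 and 296 CPM in WT, so KO replicates 2 and 3 fell between WT replicates 1 and 2 and the log2 fold change was -0.17 (SE 0.08). Ifi204 is over 95% identical over long stretches to its neighbours Ifi211 and Mndal, and reads may have been lost or exchanged between them. Zbp1, a sensor of Z-form nucleic acid that can trigger cell death, spanned 79.8 to 118 CPM in KO and 94.1 to 144 CPM in WT. Dhx58, a helicase that tunes RIG-I-like receptors, and Eif2ak2, the kinase that stops translation on double-stranded RNA, swung less, by 1.25-fold and 1.29-fold within KO.

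The IFIT genes, which bind viral RNA lacking host cap marks, lie side by side on chromosome 19 and had median ranges of 1.54-fold in KO and 1.5-fold in WT. Ifit2 (chr19:34550694-34576419) gave 244, 399 and 372 CPM in KO and 326, 382 and 508 CPM in WT, with a log2 fold change of -0.26 (SE 0.19). Ifit3 (chr19:34583531-34588731) gave 164, 229 and 239 CPM in KO and 203, 239 and 291 CPM in WT (-0.21, SE 0.15). Both genes were low in KO replicate 1 and high in WT replicate 3, with the other libraries mixed.

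Ifit3b (chr19:34607970-34613401), a copy of Ifit3 that is 97.8% identical to it over 1700 bases, gave 35.3, 48.4 and 51.2 CPM in KO and 45.0, 51.4 and 64.8 CPM in WT (-0.26, SE 0.15, adjusted p = 0.961, edgeR). How reads were split between the pair is uncertain. Ifit1 (chr19:34640871-34650009), with 2 ISRE cores in the stretch shown, gave 89.4, 156 and 154 CPM in KO and 103, 135 and 172 CPM in WT. Its range over single libraries was 1.74-fold in KO and 1.68-fold in WT, and the log2 fold change between genotypes was -0.04 (SE 0.22).

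The oligoadenylate synthetases bind double-stranded RNA, and the active enzymes among them make the messenger that turns on RNase L. Oas2 (chr5:120730333-120749853) gave 104, 142 and 128 CPM in KO and 105, 119 and 110.3 CPM in WT, a difference of 0.16 in log2 (SE 0.10; adjusted p = 0.961 in edgeR). This was the highest of the 43 fold changes, yet KO replicate 1 was the lowest library, and WT replicate 3 was not the highest WT library. Oasl1 (chr5:114923240-114937915), which limits translation of Irf7 mRNA, gave 36.0, 60.8 and 50.7 CPM in KO and 38.9, 56.7 and 63.3 CPM in WT (-0.11, SE 0.20), low in both replicate 1 libraries. Oas1a, Oas3 and Oasl2 had log2 fold changes of -0.02, -0.12 and -0.08, and Oas1a is 97.6% identical to Oas1g over 1861 bases.

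Isg15, the ubiquitin-like protein that is joined to other proteins or secreted, gave 70.6, 114 and 107 CPM in KO and 84.6, 96.6 and 124 CPM in WT. The 2 genotypes overlapped throughout, the range was 1.62-fold in KO and 1.47-fold in WT, and the log2 fold change was -0.07 (SE 0.18). Herc6, the mouse ligase for ISG15, ran from 37.0 to 51.4 CPM in KO and from 41.7 to 48.1 CPM in WT (0.04, SE 0.11).

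Enzymes that act on nucleotides and RNA shared the swing, with median ranges of 1.54-fold in KO and 1.47-fold in WT. Rsad2, or viperin, which makes a chain-terminating nucleotide, gave 172, 276 and 244 CPM in KO and 204, 264 and 301 CPM in WT (-0.15, SE 0.17). Its neighbour on chromosome 12, Cmpk2, a nucleotide kinase, spanned 108 to 163 CPM in KO and 135 to 199 CPM in WT (-0.21, SE 0.16). Samhd1, which breaks down deoxynucleotides, spanned 1.16-fold in KO and 1.22-fold in WT, and the RNA exonuclease Isg20 spanned 1.57-fold and 1.59-fold.

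The membrane proteins with the highest levels swung less. Ifitm3 gave 578, 724 and 763 CPM in KO and 584, 615 and 777 CPM in WT, with a log2 fold change of 0.06 (SE 0.12). KO replicates 2 and 3 and WT replicate 3 stood together above the other 3 libraries. Bst2 gave 439, 494 and 511 CPM in KO and 442, 494 and 564 CPM in WT (-0.06, SE 0.09), a narrower spread with the lowest values in KO replicate 1 and WT replicate 1. Rtp4, a chaperone of receptors, ran from 147 to 188 CPM in KO and from 164 to 198 CPM in WT (-0.04, SE 0.10).

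The large GTPases fell into 3 families. The MX proteins, which trap viral capsids, had log2 fold changes of -0.15 for Mx1 and -0.11 for Mx2. The guanylate-binding proteins, which coat and break pathogen vacuoles, lie in a cluster on chromosome 3. Gbp5 (chr3:142493978-142522344) gave 23.3, 36.8 and 35.2 CPM in KO and 31.4, 36.2 and 46.8 CPM in WT, with the lowest log2 fold change of the 43 at -0.27 (SE 0.18; adjusted p = 0.966 in edgeR). Without KO replicate 1 it was -0.0821, and without WT replicate 3 -0.0939.

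Gbp2 (chr3:142620602-142638008) gave 92.6, 123 and 121 CPM in KO and 103, 119 and 173 CPM in WT (-0.23, SE 0.17). Its WT range of 1.67-fold came mainly from WT replicate 3, and without that library the fold change was 0.01. Among the immunity-related GTPases, which act on the same vacuoles, Ifi47 gave 15.1, 20.9 and 18.9 CPM in KO and 13.0, 18.2 and 21.9 CPM in WT (0.05, SE 0.18), and WT replicate 1, not KO replicate 1, was its lowest library. The range in WT exceeded that in KO for 5 of the 7 GBP and IRG members, while over all 43 members it did so for 15.

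Among the remaining 8 members, Ifi44, an interferon-induced cytosolic protein, gave 33.3, 66.2 and 49.3 CPM in KO and 33.5, 41.2 and 70.6 CPM in WT. The 2 genotypes covered nearly the same span, and the log2 fold change was 0.03 (SE 0.28), the least precise of the 43. Ifi27l2a gave 78.5, 88.7 and 107 CPM in KO and 81.9, 98.9 and 115 CPM in WT (-0.11, SE 0.13). Rnf213, a giant ubiquitin ligase, had the highest CPM, from 1139 to 1597 in KO and from 1293 to 1547 in WT. Parp14, Trim30a, Xaf1, Slfn5 and Ifi35 had log2 fold changes between -0.12 and 0.0011.

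Upstream of the members, interferon genes were at or near 0, and receptors, kinases and STATs spanned little between libraries. Of 21 matched interferon genes, 18 had no count in any library. Ifnb1, the interferon-beta gene, had 1, 6 and 3 counts in KO replicates 1, 2 and 3 and 4, 0 and 6 in WT replicates 1, 2 and 3, Ifnk had 1, 0, 3 and 2, 0, 0, and Ifnab had 1 count in WT replicate 2. A count of 0 allows a level of up to 0.0952 to 0.125 CPM here (3 counts, counting error only), so a source of ligand at or under that level was not detectable at this depth.

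Of 15 receptors, kinases and STATs, 0 were called. At an unadjusted p under 0.05 (edgeR) 1 was lower and 0 higher, against 3.04% and 2.4% of all tested genes. The median log2 fold change was -0.01, and the median range was 1.08-fold in KO and 1.06-fold in WT. Ifnar1, the receptor chain, gave 193, 209 and 199 CPM in KO and 195, 203 and 205 CPM in WT. The smallest p of these genes was that of Jak2, a kinase used by the interferon-gamma receptor, at -0.14 (SE 0.05, unadjusted p = 0.0224, adjusted p = 0.881, edgeR), with every KO library below every WT library.

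Of 7 further interferon regulatory factors, 6 were tested, 0 were called, and the median log2 fold change was -0.05. At an unadjusted p under 0.05 (edgeR) 1 was lower and 0 higher, against 3.04% and 2.4% of all tested genes. Irf7, the factor that amplifies interferon production and is itself an interferon target, gave 266, 367 and 347 CPM in KO and 282, 357 and 437 CPM in WT, and so had the members' order. Irf3, Irf5 and Irf8 did not have it. Irf2, which competes with Irf1 at the same sites, gave 62.8, 65.7 and 61.5 CPM in KO and 68.1, 71.5 and 73.1 CPM in WT, without overlap (-0.16, SE 0.05, unadjusted p = 0.0084, adjusted p = 0.755, edgeR). Of 13 brakes of the pathway and ISG15 conjugation genes, 0 were called and 0 had an unadjusted p under 0.05 (edgeR), with a median of 0.0029. Socs1, the feedback inhibitor of JAK kinases, stood at 0.32 in log2 (SE 0.16; adjusted p = 0.939 in edgeR). Uba7 and Ube2l6, the enzymes that activate and carry ISG15, were low in the replicate 1 libraries of both genotypes, as the members were.

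A further 84 interferon-induced genes outside the 43 gave a like picture. Of the 81 that could be tested, 0 were called, and the median log2 fold change was -0.08. At an unadjusted p under 0.05 (edgeR) 3 were lower and 0 higher, against 3.04% and 2.4% of all tested genes. KO replicate 1 was the lowest KO library for 69 of 81, WT replicate 1 the lowest WT library for 69 and WT replicate 3 the highest for 67, against 35.7%, 32.1% and 36.4% of all tested genes. Cxcl10, a chemokine that draws T cells, gave 44.0, 82.9 and 77.0 CPM in KO and 51.8, 70.9 and 97.0 CPM in WT. The 3 genes under 0.05 were Gbp4, a guanylate-binding protein (-0.43, SE 0.13, adjusted p = 0.755), the chemokine Ccl5 (-0.49, SE 0.17, adjusted p = 0.881) and Slfn8 (-0.19, SE 0.07, adjusted p = 0.905), all by edgeR.

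KO replicate 1 had the most counts of the 6 libraries and WT replicate 1 the fewest, and both were low in the members. Within WT, totals rose in the members' order, with 24179548, 24547091 and 25916709 counts in replicates 1, 2 and 3. Within KO they were 31542741, 29118452 and 25979430, and the members were lowest in the library with the most counts. The part of depth in the swing was not tested. The share of mitochondrial counts was 1.14% to 1.22%. The summed level of macrophage markers without Lyz2 was 9916 to 10860 CPM in KO and 9818 to 10960 CPM in WT. Lyz2, which carries the Cre insertion, was lower in KO (-0.89, adjusted p = 0.00415, edgeR).

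Plasmacytoid dendritic cells are the main makers of interferon-alpha. The 8 plasmacytoid markers summed to 92.7 to 93.9 CPM in KO and 96.5 to 103 CPM in WT, most of it Tcf4, whose log2 fold change was -0.0005, and none was at 0 in every library. Of the 7 that could be tested, 0 were called and all 7 had negative log2 fold changes, with a median of -0.70. At an unadjusted p under 0.05 (edgeR) 3 were lower, against 3.04% of all tested genes. Conventional dendritic cell markers (8 genes) summed to 22.2, 16.4 and 17.2 CPM in KO replicates 1, 2 and 3 and to 25.5, 25.9 and 19.4 CPM in WT replicates 1, 2 and 3. Most of that sum was Ccr7, at a mean of 12.4 CPM, and the order without it was not looked at. In the sum, KO replicate 1, lowest in the members, was the highest KO library. WT replicate 3, highest in the members, was the lowest WT library. Neutrophil markers (8 genes) summed to 697 to 751 CPM in KO and 391 to 598 CPM in WT. All 8 had positive log2 fold changes (median 0.36), 0 were called and 4 were higher at that unadjusted level (2.4% of all tested genes). T, B and NK cell markers (10 genes) summed to 80.7 to 112 CPM in KO and 109 to 168 CPM in WT, most of it Cd4. The 5 that could be tested were all negative (median -0.52), with 0 called and 3 lower at that level. Of the 8 conventional dendritic cell markers, 6 were negative (median -0.36), with 0 called and 1 lower at that level. The part of these cells in the values of the 43 genes was not tested, and in bulk RNA fewer cells of a type cannot be told apart from less RNA per cell. Whether the marker RNA came from such cells or from the macrophages themselves was also not tested.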

How the data were processed

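The authors deposited unnormalized read counts for each gene. The submitters' processing notes name HISAT2, featureCounts and the GRCm38 build. For versions, annotation release and strand setting, the sources used here give nothing, so reads of overlapping or near-identical genes cannot be told apart: 6 members have a copy at 95% identity or more over at least 300 bases (BLAST 2.17.0), and 16 others share exon bases with another gene. Positions and lengths came from GENCODE M21, promoters from RefSeq.

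Counts were scaled by TMM, filtered with filterByExpr and compared with edgeR 4.0.16's two-sided quasi-likelihood test (R 4.3.3), genotype as the only term, with Benjamini-Hochberg adjustment over all 13588 genes tested and a threshold of 0.05. Log2 CPM used a prior count of 2. DESeq2 1.42.0 and limma 3.58.1 were alternatives, with other scalings and filters and each library left out. The test was also run on simulated data, whose outcome is not given and was not used for any result here.

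Values in every library are given for the 6 members with the smallest p, the 6 highest per length, the 6 with the widest range within a genotype, and Stat2, Irf9, Irf1 and Usp18; other genes are named as examples. The members and lists were chosen with earlier results of these data known. 1 gene of the pathway lists is not reported here by name.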

Additional observations from a re-analysis of the deposited data

How the results depend on the processing

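No member was called under any of the 14 alternatives run, which were 3 scalings, 2 other tests, 2 filters, a replicate block and each library left out, although without a filter on low counts 10 of 43 members were lower and 1 higher, against 3.28% and 2.25% of all genes in that fit, at an unadjusted p under 0.05. Calls over all genes moved from 12 lower and 2 higher to 30 and 10 with DESeq2, 112 and 39 with no filter, and 5 and 0 with a mean of at least 10 CPM. Leaving out each library in turn gave 4 to 10 lower and 0 to 2 higher over all genes and a median log2 fold change of the members from -0.19 to 0.04, which was above 0 in the fits without KO replicate 1 and without WT replicate 3. Over these fits single members ran from -0.14 to 0.0397 (Bst2), -0.20 to 0.12 (Isg15), -0.21 to 0.19 (Ifit1), -0.29 to 0.0763 (Oasl1), -0.0658 to 0.0646 (Irf9), -0.23 to 0.41 (Ifi44), -0.13 to 0.23 (Ifi47), -0.0808 to 0.26 (Usp18), -0.0163 to 0.20 (Ifitm3), -0.24 to 0.0138 (Ifi27l2a) and -0.38 to 0.0144 (Gbp2), with a turn of sign. Without a turn they ran from -0.39 to -0.0821 (Gbp5), -0.39 to -0.0636 (Ifit2), -0.33 to -0.0598 (Ifit3), -0.37 to -0.10 (Ifit3b), -0.30 to -0.0681 (Stat2), -0.26 to -0.0717 (Irf1), -0.23 to -0.0925 (Ifi204) and 0.0617 to 0.28 (Oas2). Apart from Oas2, the values of these 8 nearest 0 came without KO replicate 1 or WT replicate 3. Library totals alone gave 0.0113 for Ifit1 and 0.0372 for Irf9, with the median of all genes then at 0.04, and no filter gave 0.002 for Irf9. The longer ISRE form cut the count of members from 19 to 12. The labels do not say what a shared replicate number stands for, so the numbers were not taken as pairs in the main fit. Over all genes tested, same-numbered libraries did not deviate together (correlations of 0.057, -0.123 and 0.039). The members were low in both replicate 1 libraries, and these correlations cannot show whether the wells were paired. With the replicate block, 0 members were called, 11 of 43 were lower and 1 higher at an unadjusted p under 0.05, against 3.64% and 2.54% of all genes in that fit, and the members' median was -0.08. The swing of the members' mean, 0.46 (log2) in both genotypes, lay between 0.45 and 0.50 in KO and 0.43 and 0.51 in WT under the alternatives. The orders of the libraries held for 43, 42 and at least 41 members under the added scalings. The cause of these shifts was not tested.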

Other observations

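Genes outside the interferon lists also had the libraries in the members' order. Of 8249 genes that averaged 10 CPM or more, 51 had KO replicate 1 lowest of KO, WT replicate 1 lowest and WT replicate 3 highest of WT, with a range in both genotypes at or above the members' median, and 25 had the opposite order with as wide a range. The 51 were 17 members, 7 other interferon-induced genes (Cxcl10, Ifitm6, Iigp1, Ifi208, Phf11d, Ube2l6 and Ddx58) and 27 in neither list. The lists do not hold every interferon-induced gene, so the 27 may include others, and whether they respond to interferon was not tested. The criterion was set after the order had been seen. Among the 27 were Ifit1bl1 and Ifi206, relatives of members, at 2.02-fold and 1.63-fold within KO and 1.63-fold and 1.48-fold within WT. Acod1, the enzyme that makes itaconate, was also among them (1.65-fold in KO, 1.70-fold in WT). So were the formyl peptide receptors Fpr1 (1.82-fold, 1.53-fold) and Fpr2 (1.75-fold, 1.62-fold), the complement gene C3 (1.43-fold, 1.65-fold) and Sod2 (1.40-fold, 1.41-fold). The 27 also held Tnfsf10, Mov10, Gm12250, Mgl2, Cx3cr1 and E2f2, and whether the 27 share a function was not tested. Fxyd2, a regulator of the sodium pump, had the widest range of the 27 in both genotypes, at 2.26-fold and 2.27-fold. These genes are examples chosen after their values were seen, and no test was made of them.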
